A study of Rattus norvegicus with 8 samples.

Results

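Genes of DNA replication and nucleotide supply were examined as a group of 39, namely 31 genes of the replication machinery and 8 genes that make, break down or repair nucleotides. Members were named from their known roles, with earlier results of these data known, and found on the array as the spots that carry their gene symbol. All 39 were among the 15651 genes tested, and every member was well above background on all 8 arrays. NR8383 is a macrophage line grown from cells washed out of the lung of a normal rat, which grows partly attached and partly in suspension. Total RNA from cells at passage 20 (P20, 4 arrays) was compared with total RNA from cells at passage 200 (P200, 4 arrays). Both groups were the same unmodified line in the same medium, with no treatment and no transgene, and differed by label only in passage number. The labels call the 4 samples of each passage biological replicates of one line, so the p-values measure the spread between cultures of that line.

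Replication begins where the origin recognition complex, Cdc6 and Cdt1 load the ring of MCM proteins onto DNA. The ring is switched on as a helicase by Cdc45 and the GINS complex, and polymerases held by the PCNA clamp then copy both strands. Deoxynucleotides come from ribonucleotide reductase, thymidylate synthase and thymidine kinase, while a separate set of enzymes removes uracil and unwanted nucleotides before or after they reach DNA.

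Of the 31 machinery genes 0 passed the test in limma and 3 had an unadjusted p below 0.05, while both members that passed are enzymes that clear nucleotides or uracil. Roles were assigned with earlier results of these data known, so this contrast is a description and not a test. Dnph1, a hydrolase that breaks down deoxynucleoside monophosphates, fell 8.29-fold at P200. Ung, the glycosylase that cuts uracil out of DNA, rose 1.22-fold, a call that held in 12 of 20 alternative settings. The other 37 members did not pass the test, and their fitted changes lay between -0.27 and 0.23 on the log2 scale. A change here is the log2 difference P200 minus P20, given with its moderated standard error (SE), and a gene passed at a Benjamini-Hochberg adjusted p below 0.05 in limma. Among all genes tested, 11.5% passed, 5.99% upward and 5.53% downward, so 2 of 39 members is not a share above the background.

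The probes for Dnph1 and Ung are shown because both results rest on a single 60-base probe each. On the rat rn4 assembly, as the array files place them, the Dnph1 probe lies at chr9:9865440-9865499 and the Ung probe at chr12:43522521-43522580, both on the minus strand. In the Dnph1 probe 1 of the 3 forward reading frames has no stop codon, and in the Ung probe 2 have none. The letters are written 5′ to 3′ in the sense of the transcript.
Dnph1 probe: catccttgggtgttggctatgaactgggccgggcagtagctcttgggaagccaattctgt
Ung probe: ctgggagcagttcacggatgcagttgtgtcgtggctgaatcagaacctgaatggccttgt

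Promoters were read for the members that moved and for the MCM genes, because E2F factors are the textbook regulators of replication genes. The RefSeq table (GRCr8) holds windows from 250 bases before to 50 bases after a gene's start for 34 of the 39 members, with 2 windows for Dut. Mcm4, Cdc6, Orc1, Rrm2 and Rpa3 have no entry there. The search used TTTCCCGC, TTTCGCGC, TTTGCCGC and TTTGGCGC as E2F-type words, CACGTG as the E-box, CCAAT, and GGGCGG as the GC box, on both strands. An E2F-type word was present in 16 of 35 member windows (45.7%) and in 716 of 33469 windows in the table (2.14%). The E-box was in 5 member windows (14.3%, against 6.42% of all), CCAAT in 20 (57.1%, against 37.5%) and the GC box in 25 (71.4%, against 33.1%). Member windows were also rich in CpG, with a median of 23 CpG against 7 over all windows. All 4 kinds of motif together were found in 2 member windows, those of Dnph1 and Ung, and in 17 windows of the table (0.0508%). The table's windows hold fewer CpG, so its shares are not a matched background for the members. Of these 2 genes 1 fell and 1 rose, and a link between motifs and change was not tested. A match is a run of letters, not a measured binding site.

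The 250 bases before each start are given for these genes, on the gene's own strand, with every match in capitals. The Dnph1 stretch is GRCr8 chr9:21981632-21981881 and the Ung stretch is GRCr8 chr12:48154046-48154295, both genes being on the minus strand. In Ung, overlapping GC-box matches run together, and the E-box, which reads the same on both strands, is counted once.
Dnph1 promoter: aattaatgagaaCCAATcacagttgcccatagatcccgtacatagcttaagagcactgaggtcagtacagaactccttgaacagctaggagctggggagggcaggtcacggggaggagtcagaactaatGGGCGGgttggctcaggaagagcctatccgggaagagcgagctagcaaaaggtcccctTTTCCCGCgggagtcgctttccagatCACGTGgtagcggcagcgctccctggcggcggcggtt
Ung promoter: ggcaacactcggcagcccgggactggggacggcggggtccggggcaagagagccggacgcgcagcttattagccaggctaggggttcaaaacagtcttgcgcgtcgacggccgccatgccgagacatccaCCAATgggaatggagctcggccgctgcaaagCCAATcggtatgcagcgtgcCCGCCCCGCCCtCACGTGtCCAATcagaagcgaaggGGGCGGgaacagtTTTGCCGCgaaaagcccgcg

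All 5 MCM genes with a window held at least 1 E2F-type word, and 1 match of each is set side by side with 8 bases on either side and the matched word in capitals. Positions are on GRCr8: Mcm2 at chr4:122918093-122918116, Mcm3 at chr9:30733737-30733760, Mcm5 at chr19:13488592-13488615, Mcm6 at chr13:42404476-42404499 and Mcm7 at chr12:22163215-22163238. Mcm5 is on the plus strand and the other 4 are on the minus strand. The Mcm3 word lies on the strand opposite to the gene, so it reads as its reverse complement. In Mcm2, Mcm5 and Mcm6 a second match on the opposite strand overlaps the word shown and is not set in capitals beyond it. Further matches in the Mcm3, Mcm5 and Mcm7 windows are not shown.
Mcm2: gacccggtTTTCGCGCgaaaaccc
Mcm3: cttccgtgGCGGGAAAacttggga
Mcm5: ctcagaagTTTCGCGCcaaaacgt
Mcm6: cgtctgctTTTGGCGCgaaattag
Mcm7: tgacgacgTTTCGCGCcaatttcg

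The arrays came from 1 slide and 1 scan. Between 51.02% and 54.47% of spots per array were well above background, and no spot was saturated; only 4 arrays per group limit the precision. Of 13 general macrophage markers 11 passed the filter on dim probes, with Adgre1 and Cd163 above background on no array, and 3 fell (Cd14, Itgam and Siglec1). Of the 11 tested, 9 had a fitted change below 0. An unadjusted p below 0.05, in either direction, was found for 6 of them, against 23.8% of all genes. The summed signal of those 13, in multiples of each array's 75th percentile, was 1320 to 1540 at P20 and 1280 to 1320 at P200. Lyz2, with log2 means of 9.47 at P20 and 9.26 at P200, weighs most in that sum. Of 6 alveolar macrophage markers 4 passed the filter, of which Siglec5 fell and Krt79 rose. Of 8 lung epithelium markers only Cldn18 passed the filter, through its P20 signal, and it fell. It was well above background on 4 P20 arrays and on 0 P200 arrays. Its P20 mean was 3.49-fold above the lowest level of any probe well above background on the P200 arrays. The P200 values of Cldn18 lay below that level, so the size of its fall is uncertain. Cdh1, Epcam, Sftpa1, Sftpb and Sftpd were above background on no array. Of the tested fibroblast, endothelium and lymphocyte markers 0 passed in limma, and 0 had an unadjusted p below 0.05. In RNA from a whole culture, fewer cells of a type and less RNA per cell cannot be told apart, and the part of these markers in the members' values was not tested.

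**Figure D1:**
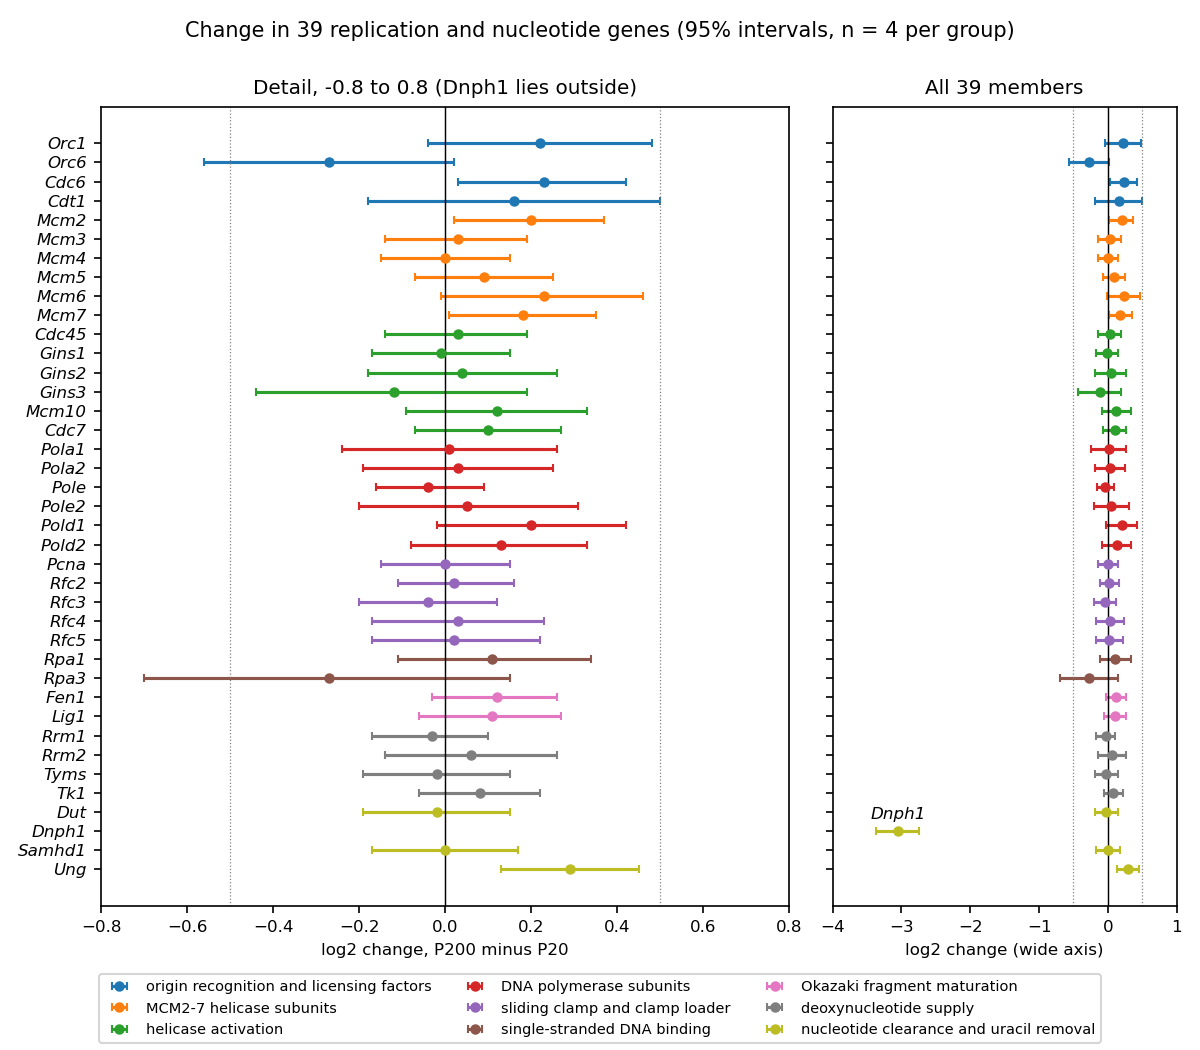
Fitted log2 change (P200 minus P20) of each of the 39 members with its 95% interval, grouped by role, on a narrow axis at the left and a wide axis at the right; n = 4 arrays per group, and dotted lines mark 0.5 on either side of 0. Dnph1 stands at -3.05 and every other member lies between -0.27 and 0.29.

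Dnph1 is also known as Rcl, a gene that responds to c-Myc, and its enzyme removes modified deoxyuridine monophosphate from the nucleotide pool. Its level, the log2 signal minus the array's 75th percentile, was 0.09, 0.08, -0.19 and 0.24 on the P20 arrays. On the P200 arrays it was -2.81, -3.07, -3.32 and -2.78. All 4 P200 arrays lay below all 4 P20 arrays, and the group means were 0.05 ± 0.18 (SD, n = 4) and -3.0 ± 0.25 (SD, n = 4). The change was -3.05 ± 0.14 (SE), with a 95% interval from -3.37 to -2.74 and an adjusted p of 1.43e-06 in limma. As a ratio this is 8.29-fold lower, with an interval from 6.66-fold to 10.3-fold. Of the 15651 genes tested, 56 had a change as low or lower, Dnph1 included.

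The P200 signal of Dnph1 was still measurable. The lowest level of any probe well above background on the same arrays was -4.79, -4.78, -4.50 and -4.13, below the Dnph1 level on each of them. Some probes above that lowest level still failed the background mark. A second Gins2 probe, at -3.42 and -3.60 on P200 replicates 3 and 4, was well above background on 0 P200 arrays. The distance of Dnph1 from the lowest level is therefore not a margin of safety. Dnph1 passed the test in all 20 alternative settings. Its size depended on the starting values. Quantile normalization gave 8.20-fold, and normexp correction followed by the same normalization gave 3.67-fold. The deposited series values gave 4.08-fold, and the slide row as a block gave 8.0-fold. The rows of the slide were unevenly shared, with 1 P20 and 3 P200 arrays in row 1, and 3 P20 and 1 P200 array in row 2. The difference between group means was -3.14 within row 1 and -2.86 within row 2.

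The genes beside Dnph1 and Ung were looked at after the values of both had been seen. In RefSeq order the 5 tested genes on either side of Dnph1 were Rrp36, Mrpl2, Klc4, Ptk7 and Srf, then Abcc10, Tjap1, Yipf3, Polr1c and Xpo5. Of these 10 genes 0 passed the test in limma and 3 had an unadjusted p below 0.05, and their changes ran from -0.09 (Tjap1) to 0.71 (Ptk7, SE 0.71). The 10 tested neighbours of Ung ran from -0.21 (Gltp) to 0.22 (Alkbh2), with 0 past the test and 1 at an unadjusted p below 0.05. Alkbh2, a DNA repair dioxygenase, is the next tested gene to Ung, with a change of 0.22 ± 0.08 (SE) and an adjusted p of 0.139 in limma.

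**Figure D2:**
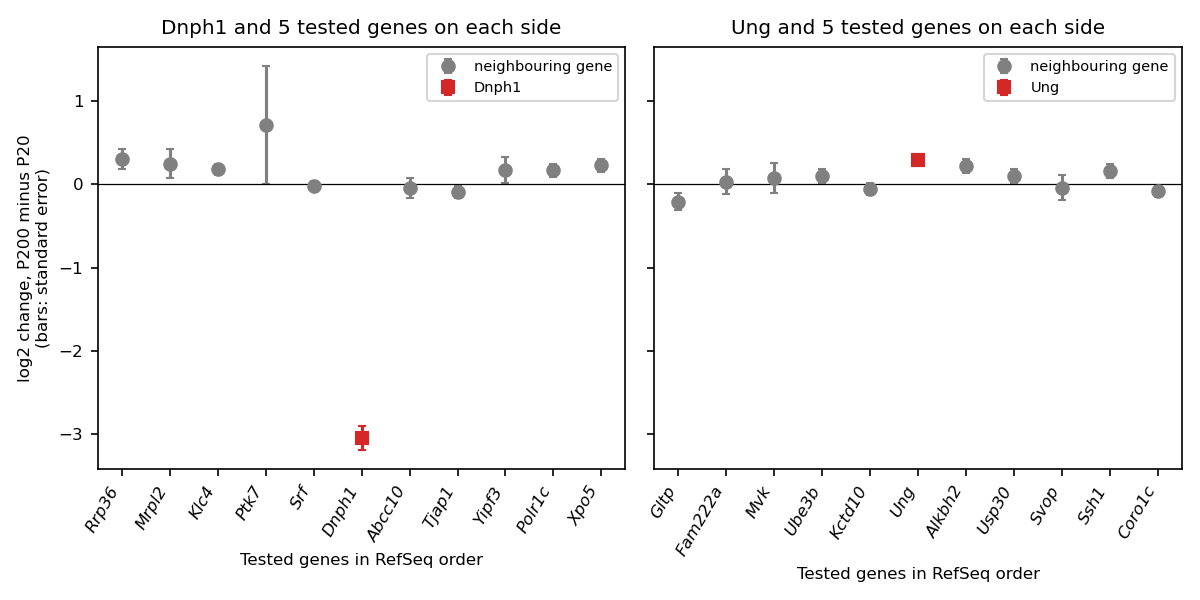
Log2 change (P200 minus P20) with its standard error for Dnph1 (left) and Ung (right), drawn as squares, and for the 5 tested genes on each side in RefSeq order, drawn as circles; distances along the chromosome are not to scale. Dnph1 stands at -3.05 between neighbours of -0.02 (Srf) and -0.05 (Abcc10).

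Ung was at 0.38, 0.51, 0.50 and 0.54 on the P20 arrays and at 0.67, 0.82, 0.87 and 0.74 on the P200 arrays. Every P200 array was above every P20 array, and the group means were 0.48 ± 0.07 (SD, n = 4) and 0.77 ± 0.09 (SD, n = 4). The change of 0.29 ± 0.07 (SE) is a 1.22-fold rise with an interval from 1.1-fold to 1.36-fold, and the adjusted p was 0.0276 in limma. This call was close to the threshold and held in 12 of 20 alternative settings, whose adjusted p ran from 0.0181 to 1. It was lost with the slide row as a block (adjusted p = 0.0892), and the difference was 0.43 within row 1 and 0.15 within row 2. It was also lost without P20 replicate 1 (adjusted p = 0.0837), 2 (0.0612) or 3 (0.0704), and without P200 replicate 2 (0.0746) or 3 (0.0839). Each of those fits tested fewer arrays, and the change stayed between 0.25 and 0.30 in them.

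The other enzymes of clearance did not pass the test. Samhd1, which degrades deoxynucleoside triphosphates in macrophages and other non-dividing cells, was at 0.27, 0.10, 0.13 and 0.14 at P20 and at 0.00, 0.18, 0.25 and 0.22 at P200. The groups overlapped, and the change was 0.00 ± 0.08 (SE), with a 95% interval from -0.17 to 0.17. Dut, which converts deoxyuridine triphosphate to the monophosphate and so keeps uracil out of DNA, had a change of -0.02 ± 0.07 (SE) with an interval from -0.19 to 0.15. A second Dut probe gave 0.12 ± 0.08 (SE), so the sign of the Dut change differed between probes.

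The enzymes of deoxynucleotide supply had fitted changes from -0.03 to 0.08, and none passed the test. Rrm1 and Rrm2, the large and small subunits of ribonucleotide reductase, had changes of -0.03 ± 0.06 and 0.06 ± 0.09 (SE). Tyms, thymidylate synthase, had a change of -0.02 ± 0.07 (SE). Tk1, thymidine kinase of the salvage route, had the largest of the 4. It was at 4.38, 4.21, 4.33 and 4.37 at P20 and at 4.47, 4.38, 4.35 and 4.40 at P200, groups that overlapped, with a change of 0.08 ± 0.06 (SE) and an adjusted p of 0.511 in limma. All 4 intervals lay within 0.26 of 0 on the log2 scale. The median change over the 8 nucleotide genes was -0.01, with 1 called up, 1 called down and 6 not past the test.

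**Figure D3:**
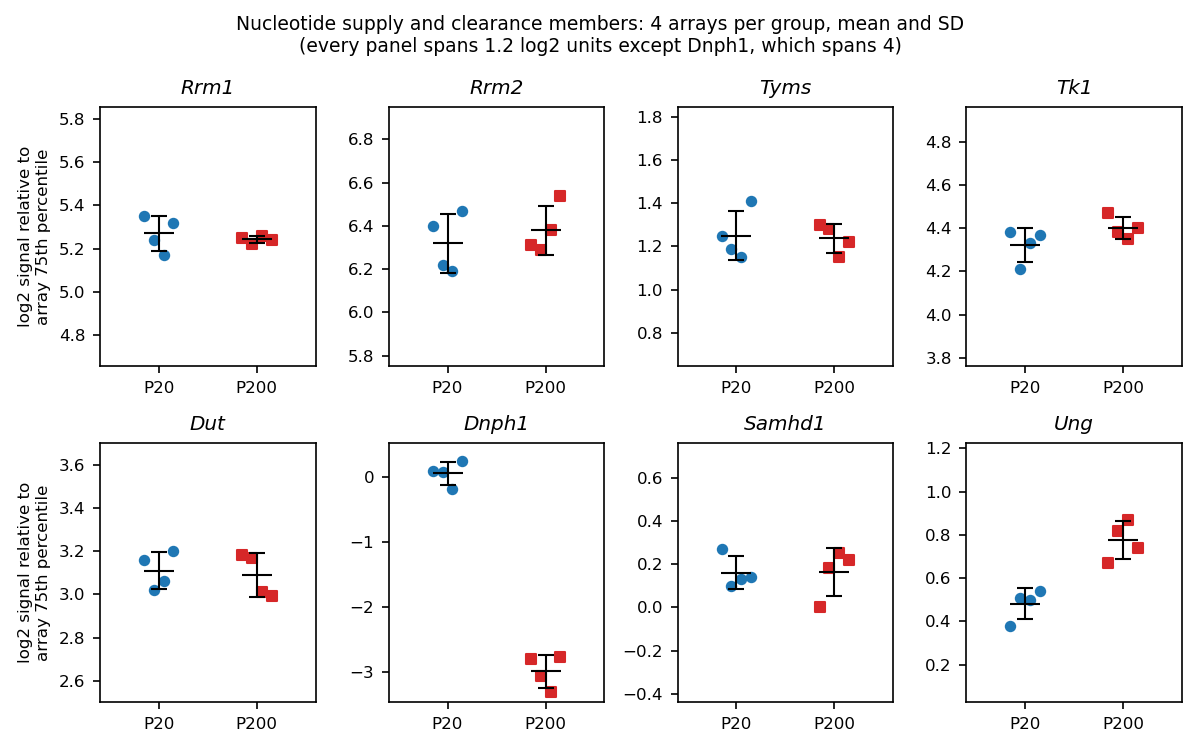
Log2 signal relative to the array's 75th percentile for the 8 nucleotide supply and clearance members, 1 panel per gene, with 4 P20 arrays (circles) and 4 P200 arrays (squares) and the mean and SD of each group. Dnph1, on a wider axis than the others, drops from 0.05 to -3.0, Ung is higher on all P200 arrays, and the groups overlap in the other 6 panels.

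Within the machinery, 24 of 31 genes had a fitted change above 0 (77.4%, against 49.9% of all genes), and the median was 0.04 against 0.00. With each array's median in place of its 75th percentile, a scaling that moved the median of all genes to -0.04, the count was 16 of 31 (51.6%, against 41.4% of all genes) and the machinery median was 0.01. Without P20 replicate 3 it was 17 of 31 (54.8%, against 47.9%), with medians of 0.00 for the machinery and -0.01 for all genes. The 95% interval lay within 0.5 log2 units of 0, which is 1.41-fold either way, for 29 of 31 machinery genes and 36 of all 39 members. The same held for 70.5% of all genes tested. The exceptions were Orc6, Rpa3 and Dnph1.

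Origin recognition and licensing genes had fitted changes from -0.27 to 0.23, and none of the 4 passed. Orc6, a subunit of the origin recognition complex, was at -1.20, -1.25, -1.04 and -1.41 at P20 and at -1.30, -1.58, -1.31 and -1.79 at P200. The groups overlapped, with a change of -0.27 ± 0.13 (SE), an interval from -0.56 to 0.02 and an adjusted p of 0.238 in limma. Orc1, the largest subunit of the same complex, had the opposite sign at 0.22 ± 0.11 (SE). Cdc6, which loads the MCM ring, had a change of 0.23 ± 0.09 (SE), an unadjusted p of 0.0279 and an adjusted p of 0.144 in limma. Cdt1, its partner in loading, had a change of 0.16 ± 0.15 (SE), with P20 replicate 4 at 0.18 above every other array. Of the 39 members 5 had an unadjusted p below 0.05 (Dnph1, Ung, Cdc6, Mcm2 and Mcm7), against 23.8% of all genes.

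The 6 subunits of the MCM2-7 helicase, the ring that opens the double helix, had fitted changes from 0.00 to 0.23 with a median of 0.14. All 6 signs were positive in the values reported, 4 of 6 after array-median scaling, where the median of the 6 was 0.10 and that of all genes -0.04, 5 of 6 after quantile normalization, 4 of 6 with the slide row as a block and 4 of 6 without P20 replicate 3. Mcm6 had the largest change. It was at 2.52, 2.41, 2.42 and 2.79 at P20 and at 2.75, 2.67, 2.69 and 2.94 at P200. P20 replicate 4 overlapped the P200 range, and the change was 0.23 ± 0.10 (SE), with an interval from -0.01 to 0.46 and an adjusted p of 0.226 in limma. Mcm7 was at 4.72, 4.59, 4.45 and 4.69 at P20 and at 4.79, 4.75, 4.76 and 4.88 at P200, with no overlap. Its change was 0.18 ± 0.07 (SE), with an adjusted p of 0.179 in limma.

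Mcm2 had a change of 0.20 ± 0.08 (SE), and its second probe gave 0.17 ± 0.10 (SE). Mcm5 was at 0.09 ± 0.07 and its second probe at 0.11 ± 0.09 (SE). Mcm4 was at 0.00 ± 0.06 (SE), with an interval from -0.15 to 0.15, and its 2 other tested probes each gave 0.01. Mcm3 was at 0.03 ± 0.07 (SE) by its brightest probe, while its second and dimmer probe gave -0.21 ± 0.08 (SE), with an adjusted p of 0.147 over all probes in limma.

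Helicase activation genes straddled 0. Gins3, a subunit of the GINS complex, had the largest absolute change of the 6, -0.12 ± 0.14 (SE). Its P20 arrays were at -0.46, -0.52, -0.48 and -0.42 and its P200 arrays at -0.26, -0.57, -0.53 and -1.0, so that the P200 group spanned the whole P20 range. Gins1 and Gins2, of the same complex, were at -0.01 ± 0.07 and 0.04 ± 0.10 (SE). Cdc45, the third part of the active helicase, was at 0.03 ± 0.07 (SE). Mcm10, a firing factor, was at 0.12 ± 0.09, and Cdc7, the kinase that phosphorylates the MCM ring, was at 0.10 ± 0.07 (SE).

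Among DNA polymerase subunits, Pold1, the catalytic subunit of polymerase delta, had the largest change. It was at 3.32, 3.30, 2.96 and 3.34 at P20 and at 3.42, 3.37, 3.37 and 3.56 at P200. The groups did not overlap, and the change was 0.20 ± 0.10 (SE), with an interval from -0.02 to 0.42 and an adjusted p of 0.259 in limma. Pold2, the second subunit, was at 0.13 ± 0.09 (SE). The subunits of polymerase alpha, which starts each strand with primase, were at 0.01 ± 0.11 (Pola1) and 0.03 ± 0.10 (Pola2). Pole, the catalytic subunit of polymerase epsilon, was at -0.04 ± 0.06 (SE), and its other probes gave 0.09 and -0.20, the widest gap between probes of any member at 0.29. Pole2 was at 0.05 ± 0.11 (SE).

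The sliding clamp Pcna was at 4.74, 4.64, 4.52 and 4.69 at P20 and at 4.63, 4.60, 4.66 and 4.69 at P200, with a change of 0.00 ± 0.07 (SE) and an interval from -0.15 to 0.15. The clamp loader subunits lay close to it. Rfc3 had the largest absolute change of the 4, -0.04 ± 0.07 (SE), from 3.51, 3.63, 3.48 and 3.72 at P20 to 3.58, 3.60, 3.49 and 3.53 at P200. Rfc2, Rfc4 and Rfc5 were at 0.02 ± 0.06, 0.03 ± 0.09 and 0.02 ± 0.08 (SE).

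Rpa3, the smallest subunit of the complex that coats single-stranded DNA, was at 3.44, 3.39, 3.22 and 3.49 at P20 and at 3.34, 3.4, 2.50 and 3.21 at P200. P200 replicate 3 stood below the other 7 arrays, and the change of -0.27 ± 0.19 (SE) had an interval from -0.70 to 0.15 and an adjusted p of 0.448 in limma. The second Rpa3 probe read 2.68 on that array against 2.66 to 2.81 on the other P200 arrays, and gave a change of -0.11 ± 0.07 (SE). Rpa1, the largest subunit, was at 0.11 ± 0.10 (SE). Fen1, the nuclease that trims Okazaki fragments, was at 5.35, 5.32, 5.16 and 5.38 at P20 and at 5.42, 5.38, 5.42 and 5.44 at P200, with a change of 0.12 ± 0.06 (SE) and an adjusted p of 0.338 in limma. At more digits than are printed, its lowest P200 array stood above its highest P20 array. Lig1, the ligase that joins those fragments, was at 0.11 ± 0.07 (SE).

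Groups did not overlap for 5 members, against 19.6% of all genes. Ung, Mcm7, Pold1 and Fen1 were higher on every P200 array, and Dnph1 was lower. The same arrays were low or high for many members within a passage. P20 replicate 3 was the lowest P20 array for 25 of 39 members (64.1%) and for 28.7% of all genes. P20 replicate 4 was the highest for 22 members (56.4%), against 35.6% of all genes. Among the P200 arrays, replicate 4 was the highest for 18 members (46.2%), against 40.2% of all genes, and for 6 of 6 MCM2-7 genes.

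**Figure D4:**
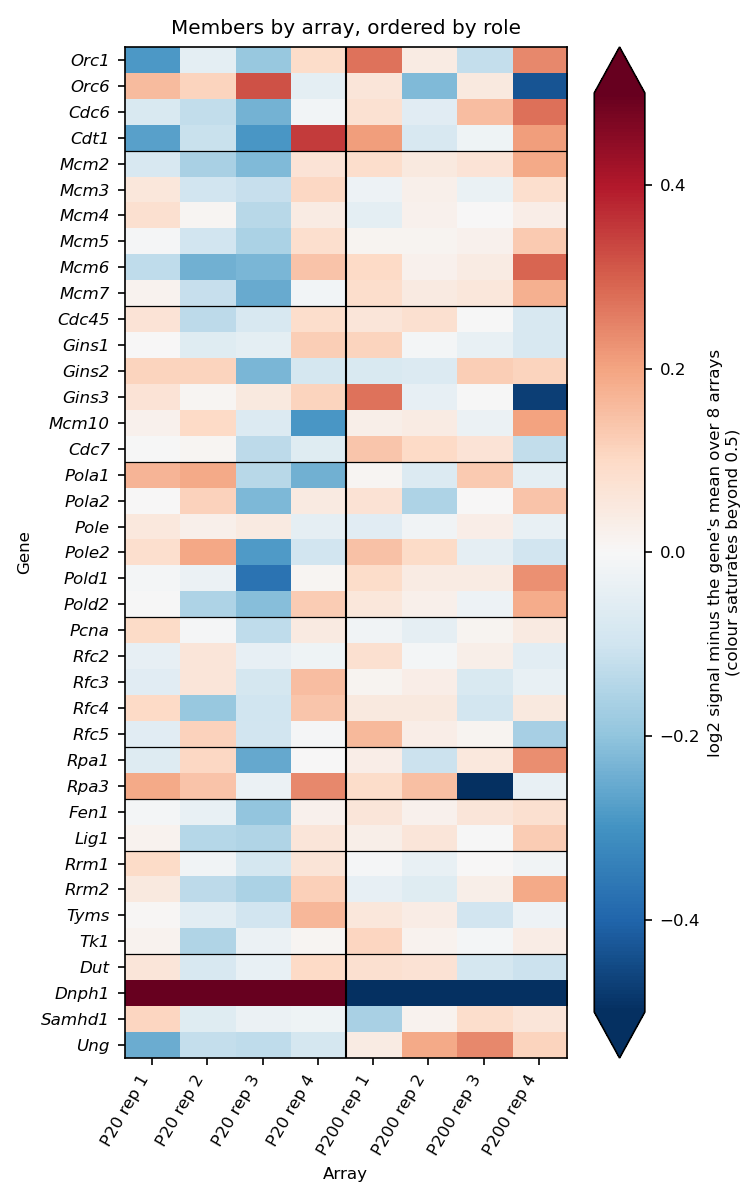
Log2 signal of each member on each of the 8 arrays minus that gene's mean over the 8 arrays, with genes ordered by role and horizontal lines between roles; colour saturates beyond 0.5. P20 replicate 3 is blue for most machinery genes, Dnph1 switches from the top to the bottom of the scale between passages, and Rpa3 is low on P200 replicate 3.

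Of 12 members with more than 1 tested probe, 4 had probes that differed in sign (Dut, Mcm3, Pole and Rrm2), and no second probe passed the test. The array carries 55 member probes, of which 53 were tested. A second Gins2 probe and 1 further Mcm4 probe were left out as dim. On rn4 the probe of Tk1 that was not used maps to chr3, and the probes of Mcm3 and Cdc45 lie on unplaced pieces of chromosomes X and 11.

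A wider list of 47 replication genes, chosen with earlier results known, was read beside the members, and 40 of them were tested. Of these 2 rose, 1 fell and 37 did not pass, with a median change of 0.00. Dscc1, which helps to load the clamp during cohesion, was at 1.54, 1.65, 1.21 and 1.38 at P20 and at 2.15, 2.02, 1.83 and 1.67 at P200, without overlap. It rose by 0.47 ± 0.13 (SE), with an adjusted p of 0.0496 in limma. The call was lost with the mean of its probes, at 0.37 ± 0.16 (SE) and an adjusted p of 0.2 in limma. It was also lost with every probe tested singly (adjusted p = 0.0516 in limma). Recql4, a helicase that takes part in origin firing, rose by 0.46 ± 0.11 (SE), with an adjusted p of 0.0303 in limma. Orc5, of the origin recognition complex, fell by 0.43 ± 0.10 (SE), with an adjusted p of 0.0238 in limma, and by 0.17 with an adjusted p of 0.0531 after normexp correction.

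None of these 3 calls was stable when arrays were left out. Dscc1 was called in 2 of 8 such fits, those without P20 replicate 2 and without P200 replicate 4, and its adjusted p ran from 0.0287 to 0.128. Recql4 was called in 2 of 8, without P20 replicate 4 and without P200 replicate 2, and its adjusted p ran from 0.0214 to 0.0863. Orc5 was called in 2 of 8, without P20 replicate 1 and without P200 replicate 4, and its adjusted p ran from 0.00883 to 0.0704. With the slide row as a block, Dscc1 (adjusted p = 0.0981 in limma) and Orc5 (0.0936) were not called. The transcription factor genes E2f1, E2f2 and E2f3 were at -0.05 ± 0.06, 0.36 ± 0.15 and 0.05 ± 0.07 (SE), and none passed.

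A list of 48 other genes of nucleotide metabolism, also chosen with earlier results known, had 46 tested, of which 4 rose, 2 fell and 40 did not pass, with a median of 0.04. Ada, adenosine deaminase of purine salvage, was at -1.96, -2.08, -1.85 and -2.18 at P20 and at -1.10, -0.99, -0.99 and -1.15 at P200. The groups did not overlap, and it rose by 0.96 ± 0.08 (SE), or 1.94-fold, with an adjusted p of 0.00011 in limma. Impdh1, an isoform of the enzyme that commits purines to guanine nucleotides, was well above background on 4 P20 arrays and on 0 P200 arrays. It was called lower at P200, with an adjusted p of 2.92e-06 in limma. Its P20 mean was 3.04-fold (1.61 on the log2 scale) above the lowest level of any probe well above background on the P200 arrays. Impdh1 was tested because of its P20 signal, and that p rests on P200 values below that level. Normexp correction with quantile normalization gave a change of -0.72 and the deposited series values gave -0.93. Both are smaller than 1.61, so the size of the fall is uncertain. Impdh2, the other isoform, had a change of 0.15 ± 0.06 (SE) and did not pass.

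Tymp, thymidine phosphorylase, rose by 0.56 ± 0.10 (SE), with an adjusted p of 0.00614 in limma. Adsl, which acts in purine synthesis, rose by 0.46 ± 0.06 (SE), with an adjusted p of 0.00192. Slc29a1, a nucleoside transporter, rose by 0.27 ± 0.07 (SE), with an adjusted p of 0.0316, and Upp1, uridine phosphorylase, fell by 0.62 ± 0.17 (SE), with an adjusted p of 0.0483. Upp1 was at 1.97, 1.63, 2.08 and 2.10 at P20 and at 1.08, 1.06, 1.47 and 1.70 at P200, and the groups overlapped. Ada, Impdh1, Adsl and Tymp were called in 8 of 8 fits that left out an array. Slc29a1 was called only without P20 replicate 2 or P200 replicate 3, and Upp1 only without P20 replicate 2 or P200 replicate 4. Their adjusted p ran from 0.0371 to 0.0954 for Slc29a1 and from 0.019 to 0.131 for Upp1. Both calls were lost with the slide row as a block (adjusted p = 0.0779 for Slc29a1 and 0.0732 for Upp1 in limma), and 4 of the 6 calls in this list remained.

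Of the 6 genes that rose in these wider lists, 4 have probes on rn4 chromosome 7 (Dscc1, Recql4, Adsl and Tymp), a position looked up after their values were seen. The other tested genes of these lists with probes there did not pass. They were Cdk2 (0.02), E2f7 (0.04), Prim1 (0.06), Timeless (-0.04) and Shmt2 (0.46). On that chromosome 266 of 936 tested genes rose (28.4%), against 625 of 13759 on the others (4.54%). Of the 39 members 0 have their tested probe there, and 4 have no placed position.

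**Figure D5:**
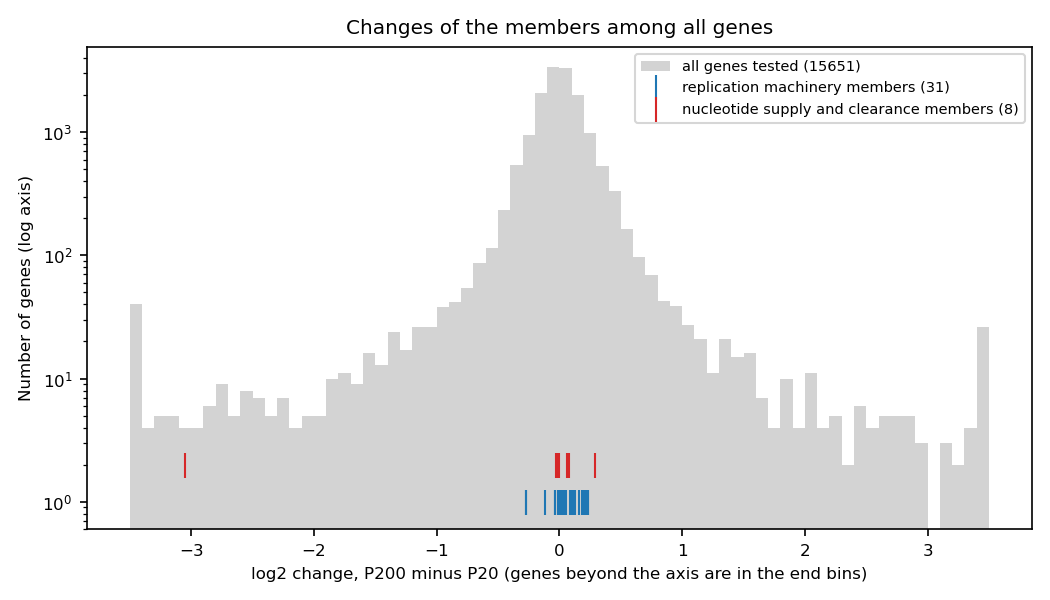
Number of genes (log axis) by log2 change, P200 minus P20, for all 15651 genes tested (grey bars), with ticks for the 31 machinery members and the 8 nucleotide members at arbitrary heights; genes beyond the axis are collected in the end bars. All ticks lie between -0.27 and 0.29 except that of Dnph1 at -3.05.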

How the data were processed

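Each sample's Cy3-labelled cRNA was hybridised to a 1-colour Agilent rat array. The deposited scanner files give each spot's intensity (gProcessedSignal), background-corrected by Agilent Feature Extraction 11.0.1.1, per the submitters' processing notes. The deposited value table of the series, also intensity per the file headers and the values, served as an alternative; its P200 columns carry replicate numbers shifted against the scanner files.

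Spots marked as outliers were left out, log2 spots were averaged per probe, and each array's 75th percentile was subtracted. A probe was tested if well above background on every array of at least 1 group, and a gene was represented by its brightest probe. Names came from RefSeq (GRCr8). limma 3.58.1 in R 4.3.3 fitted P200 against P20 (4 arrays each, two-sided, no covariate), with Benjamini-Hochberg adjustment over 15651 genes; the script was tested on simulated data. The members, their roles and the lists were chosen with earlier results of these data known. All members are accounted for; arrays are listed for members past the test and for the largest absolute change of each role, besides a few others chosen after their values were seen. Alternatives covered scaling, background, filter, probe choice, naming, outlier spots, starting values, blocks and each array left out.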

Additional observations from a re-analysis of the deposited data

Results flagged for a closer look

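In 3 of 78 groups of 4 arrays (39 members, both passages), the highest or lowest array stood far from the other 3 by Dixon's criterion, which chance meets in about 1 in 20 groups. Mcm5 was highest on P200 replicate 4, at 5.38 with the nearest array at 5.27. Pold1 was lowest on P20 replicate 3, at 2.96 with the nearest at 3.30. Rfc4 was lowest on P200 replicate 3, at 0.95 with the nearest at 1.09. The 3 lie on 3 different arrays.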

How the results depend on the processing

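Of 20 alternative settings, 8 left out an array. The 2 members' calls became 1 (Dnph1) with array-median scaling, without the filter on dim probes and with the slide row as a block; the counts were 1 to 2 when an array was left out. No other member passed in any setting. The sign differed in at least 1 setting for 17 of the 37, and for 16 with array medians, which shift the median of all genes to -0.04, left out; the reported changes of those 16 were at most 0.12 either way. The calls among all genes went from 1804 to 653 with array medians and to 812 without the filter, and ran from 1278 to 1691 with an array left out. With array medians the genes named here all had an SE of 0.26. The other replication genes had 0 calls with array medians and 0 without the filter, 1 with the deposited series values and 1 with the slide row block, and 0 to 2 with an array left out. The other nucleotide genes had 2 with array medians and 4 to 6 with an array left out. Median changes ran from 0.003 to 0.087 for the machinery and from -0.028 to 0.023 for the nucleotide genes with an array left out. The cause of these shifts was not tested. By the scanner files' numbering, same-numbered arrays deviated together weakly (correlations of 0.025, 0.134, -0.003 and 0.281), and the numbers were not taken as pairs. The deposited series numbers the P200 arrays differently, and pairs by that numbering were not tested. The replicate block, by the scanner files' numbering, gave 1503 calls, 785 up and 718 down, the same 2 members among them. With that block Slc29a1 was no longer called (adjusted p = 0.0721 in limma).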
